A study of Homo sapiens with 6 samples.

Results

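SORL1, the sortilin receptors and the LDL receptor family were examined in SUM159 cells depleted of TβRIII, the betaglycan coreceptor for TGF-β. The set was chosen by name from the sortilin and LDL receptor families, with earlier results of these arrays known, and comprised SORL1, SORT1, SORCS1, SORCS2, LRP1, LRP2, LRP8, LRP12 and VLDLR. Of these 9 genes, 8 had a row and were measured, each by 1 transcript cluster (the array's unit for a gene), out of 18276 genes in all. SORT1 was not analysed here. SUM159, an established line from a human breast carcinoma, lacks the receptors defining the other breast cancer subtypes and is used as a model of the mesenchymal stem-like (MSL) group of triple negative breast cancer. The cells were grown in 3-dimensional culture and collected on day 6. The study's methods name growth factor reduced Matrigel for this culture and give serum and hydrocortisone for routine SUM159 medium. They do not specify the medium of the 3-dimensional culture. The 3 control arrays and the 3 TβRIII-KD arrays came from cells that differed by a stable lentiviral short hairpin RNA against TGFBR3, selected with puromycin. The nature of the control vector was not given in the sources used here. The study made knockdown lines with several hairpins and went on with a single one, and the labels name no hairpin for these arrays. Loss of TGFBR3 and any other effect of hairpin or selection cannot be told apart. Neither the labels nor the methods say whether the arrays came from separate cultures, so p-values measure only the spread between these samples. RNA was hybridised to Affymetrix Human Gene ST arrays, and values are log2 robust multi-array average (RMA) signals as deposited. With 3 arrays per group, the number of arrays limits the precision.

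The sortilins are receptors of the Golgi and endosomes that carry cargo proteins between the cell surface, endosomes and the secretory pathway. SORL1, also called SorLA or LR11, joins the sortilin domain to the ligand-binding repeats of the LDL receptor family and is best known for routing the amyloid precursor protein, APP, in neurons, and as a risk gene for Alzheimer disease. The LDL receptor family takes up lipoproteins, proteases and their inhibitors and, for some members, passes signals such as that of reelin. SORL1, LRP1 and VLDLR also bind components of the plasminogen activator system, which regulates proteolysis at the surface of tumour cells.

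TGFBR3 itself, which encodes TβRIII, read 10.81, 10.89 and 10.56 in controls and 9.72, 10.01 and 10.16 in TβRIII-KD, a difference of -0.79 (SE 0.13, adjusted p = 0.0145). All TβRIII-KD arrays lay below all controls, and the adjusted p ranged from 0.00872 to 0.0770 when each array was left out in turn, above 0.05 without control 1, control 2 or TβRIII-KD 2. Array medians lay between 7.67 and 7.71. Correlation over all transcript clusters was 0.995 to 0.996 between controls, 0.992 to 0.994 between TβRIII-KD arrays and 0.986 to 0.992 across the groups. TβRIII-KD 3 stood apart from TβRIII-KD 1 and 2 on the second principal component, which held 21.9% of the variance. Mesenchymal markers were bright on all arrays, with VIM between 12.84 and 13.12. Epithelial markers were mixed. The keratins KRT8, at 11.40 to 11.97, and KRT18, at 10.46 to 11.33, were also bright. CDH1, at 5.17 to 5.47, EPCAM, at 5.76 to 6.05, and KRT19, at 7.03 to 7.45, were below the array medians. So were ESR1, at 6.22 to 6.53, and PGR, at 4.87 to 5.38. ERBB2, the third receptor by which the triple negative label is given, read 8.80 to 9.04, above the array medians. The files hold no detection calls, so absence of a transcript cannot be read from these values.

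Among the measured genes of the set, only SORL1 passed the cutoff of limma adjusted p under 0.05 with an absolute log2 difference over 0.5. That 1 of 8 compares with 2.26% of all 22148 transcript clusters (0.777% higher, 1.49% lower) and 2.33% of all genes. The groups did not overlap for 2 of the 8 genes, SORL1 and VLDLR. The same held for 21.3% of all genes (20.7% of all transcript clusters), so non-overlap alone does not set these genes apart. The promoters of those 2 genes, as RefSeq places them on GRCh38.p14, are given to show the sequence next to the start of each. They are the 250 bases before the annotated start, 5′ to 3′ on the strand of the gene, chr11:121452064-121452313 (plus strand) for SORL1 and chr9:2621537-2621786 (plus strand) for VLDLR. Capitals mark matches to any of 5 motifs searched on both strands.
SORL1: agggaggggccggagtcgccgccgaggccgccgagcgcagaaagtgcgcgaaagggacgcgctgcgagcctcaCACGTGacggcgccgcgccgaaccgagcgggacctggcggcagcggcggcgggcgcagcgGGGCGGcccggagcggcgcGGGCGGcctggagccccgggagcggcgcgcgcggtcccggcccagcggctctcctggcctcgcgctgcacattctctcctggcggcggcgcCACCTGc
VLDLR: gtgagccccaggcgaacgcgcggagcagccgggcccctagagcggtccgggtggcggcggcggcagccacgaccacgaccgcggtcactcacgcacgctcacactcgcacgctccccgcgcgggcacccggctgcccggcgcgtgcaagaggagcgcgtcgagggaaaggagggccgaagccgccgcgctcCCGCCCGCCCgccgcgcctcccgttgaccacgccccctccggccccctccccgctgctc

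The SORL1 promoter was 80.4% G or C and held 45 CpG dinucleotides, and that of VLDLR was 78.8% G or C with 41, compared with a median of 58.0% over 34943 promoters of the same length. In SORL1 the E-box CACGTG began 177 bases before the start, the GC box GGGCGG began at 117 and 98 bases before it, and the E2-box CACCTG, the form bound by SNAIL and ZEB repressors, began 7 bases before it. VLDLR held a pair of overlapping GC boxes on the reverse strand, at 59 and 55 bases before the start. Neither window held the AP-1 letters TGANTCA or the SMAD box CAGACA. Of all promoters, 6.3% held the E-box, 17.5% the E2-box, 42.5% the GC box, 6.6% the AP-1 letters and 13.6% the SMAD box. These are matches of letters only, and nothing on these arrays reads the activity of a promoter. Promoter entries were found for 6 of the 8 measured genes. That of SORCS1 was 82.4% G or C with 45 CpG dinucleotides. Those of LRP8, LRP1 and LRP2 were 77.2%, 67.6% and 66.8% G or C. All of these also held the GC box, so neither that box nor a G or C share above the median was particular to SORL1 and VLDLR.

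SORL1 signal was 7.71, 7.77 and 7.26 in controls and 8.97, 9.12 and 8.88 in TβRIII-KD. The lowest TβRIII-KD array lay more than 1 log2 unit above the highest control, and control 3 was the lowest of the 6. The means were 7.58 ± 0.28 (SD, 3 arrays) and 8.99 ± 0.12 (SD, 3 arrays), a difference of 1.41 (SE 0.14, 95% confidence interval 1.10 to 1.73), or 2.66-fold higher signal in TβRIII-KD. In the limma fit over all transcript clusters SORL1 had an adjusted p of 0.00144, and by size of difference it was the 9th of the 141 genes that rose past the cutoff. Since the set was chosen with this contrast known, these values describe SORL1 and are no independent test of it. Leaving out each array in turn gave differences from 1.25 to 1.51 and adjusted p from 0.00141 to 0.0143. In bulk RNA, a rise in the share of cells that express a gene and a rise of RNA per cell cannot be told apart.

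**Figure D1:**
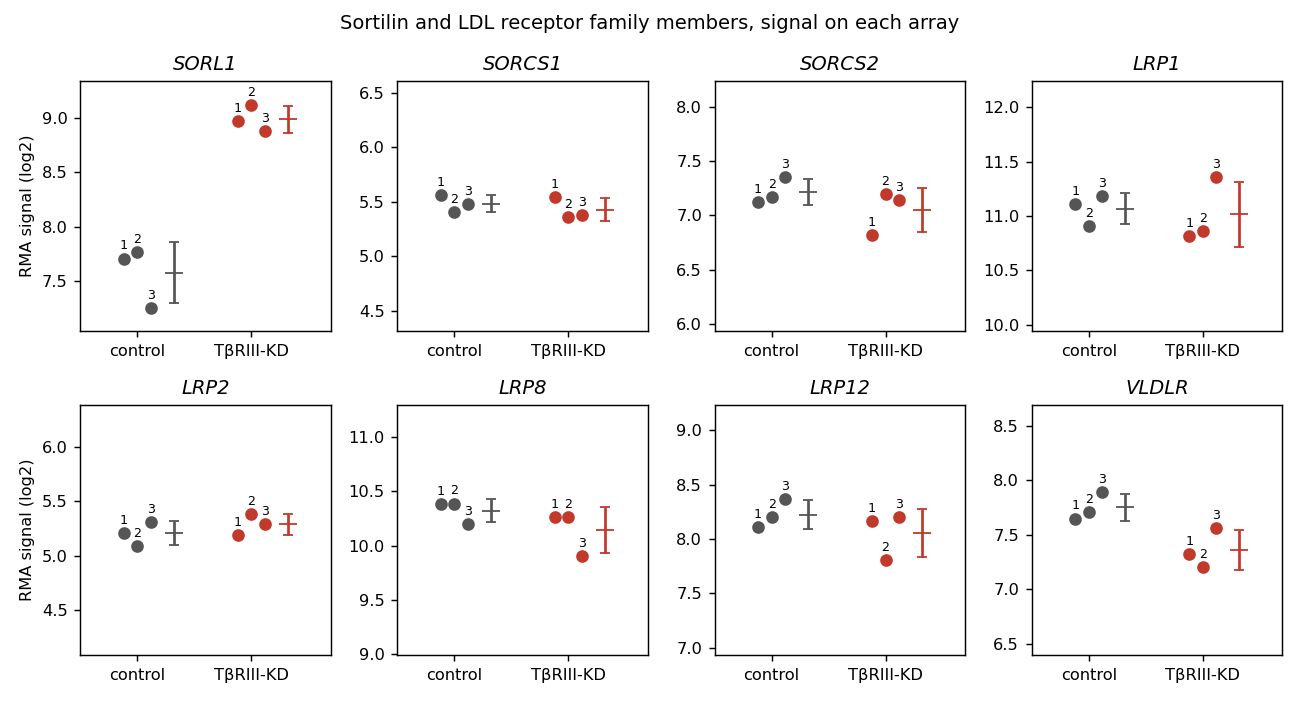
RMA signal (log2) of the 8 measured genes on each array, in controls (grey) and TβRIII-KD (red), with replicate numbers beside the points and the group mean ± SD to their right (3 arrays each). Every panel spans the same log2 height, and SORL1 and VLDLR are the panels in which the groups do not overlap. The groups did not overlap for 21.3% of all genes.

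The other measured sortilins stayed near their control levels, and SORT1, itself a sortilin, was not analysed. SORCS1, a sorting receptor of neurons and endocrine cells, read 5.564, 5.404 and 5.48 in controls and 5.55, 5.36 and 5.38 in TβRIII-KD, a difference of -0.06 (SE 0.083, interval -0.25 to 0.13). SORCS2, a receptor that binds proneurotrophins together with the p75 neurotrophin receptor, read 7.12, 7.16 and 7.35 in controls and 6.82, 7.20 and 7.14 in TβRIII-KD, a difference of -0.16 (SE 0.11, interval -0.42 to 0.10). The groups overlapped for both genes, at adjusted p of 0.811 and 0.569. SORCS3, the remaining measured sortilin, which was not in the set, differed by -0.02 (SE 0.07, adjusted p = 0.941). Its direction turned when single arrays were left out.

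Of the 5 LDL receptor family genes in the set, VLDLR was lower in signal in TβRIII-KD without passing the cutoff, and the groups overlapped for the other 4. VLDLR, a receptor for triglyceride-rich lipoproteins and reelin, read 7.65, 7.71 and 7.89 in controls and 7.33, 7.20 and 7.56 in TβRIII-KD. All TβRIII-KD arrays lay below all controls, by means of 7.36 ± 0.18 against 7.75 ± 0.12 (SD, 3 arrays each), a difference of -0.39 (SE 0.11, interval -0.64 to -0.14), or 1.31-fold. The adjusted p was 0.111. Without TβRIII-KD 3 the difference was -0.49 with an adjusted p of 0.0346, and over the alternatives run the adjusted p lay between 0.0346 and 0.340. At no setting that kept the fold limit did VLDLR pass the cutoff.

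LRP8, the second reelin receptor, also called ApoER2, read 10.38, 10.39 and 10.20 in controls and 10.26, 10.26 and 9.90 in TβRIII-KD, a difference of -0.18 (SE 0.11, interval -0.44 to 0.08). Control 3 lay below TβRIII-KD 1 and 2, so the groups overlapped (adjusted p = 0.522). LRP1, the large endocytic receptor for α2-macroglobulin and protease complexes, read 11.11, 10.91 and 11.19 in controls and 10.82, 10.86 and 11.36 in TβRIII-KD. Its highest array was TβRIII-KD 3, and the mean difference of -0.05 (SE 0.15, interval -0.39 to 0.28, adjusted p = 0.908) turned to 0.043 without TβRIII-KD 1 and widened to -0.23 without TβRIII-KD 3. LRP2, or megalin, the endocytic receptor of absorptive epithelia, read 5.21, 5.09 and 5.31 in controls and 5.19, 5.38 and 5.29 in TβRIII-KD (difference 0.08, SE 0.09, interval -0.11 to 0.28, adjusted p = 0.716). LRP12, a less studied member of the family, read 8.11, 8.20 and 8.36 in controls and 8.17, 7.81 and 8.20 in TβRIII-KD (difference -0.17, SE 0.12, interval -0.44 to 0.11, adjusted p = 0.582). The arrays of the 2 groups interleaved for both. A p above the threshold does not show equal levels: the intervals of the 6 genes other than SORL1 and VLDLR ran from -0.44 to 0.28 in all.

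Across the set, 6 of the 8 differences were below 0, with a median of -0.11, against a median of 0.01 over all 18276 genes. Without SORL1 the remaining 7 differences ran from -0.39 to 0.08, with a median of -0.16, and none passed the limma cutoff. Of these, 1 (VLDLR) had an unadjusted p under 0.05 by limma, beside 15.6% of all genes. By the unpaired t-test it was also 1, beside 13.8% of all genes. That t-test is named in the study's methods for its experiments in general, with limma named for the arrays.

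The 13 other genes of both families are not in the set, but their lists were also chosen with earlier results known. They gave no call by limma, with 2 (LRP4 and LDLRAD2) at an unadjusted p under 0.05, compared with 15.6% of all genes. By the methods' t-test 4 of the 13 had an unadjusted p under 0.05, compared with 13.8% of all genes, and 0 passed after Benjamini-Hochberg adjustment. Their differences ran from -0.17 for LRP10 to 0.42 for LRP4, with a median of -0.02, and the groups did not overlap for 6 of them, compared with 21.3% of all genes. LRP4, the agrin receptor of the neuromuscular junction and a modulator of Wnt signalling, read 7.34, 7.38 and 7.44 in controls and 7.57, 8.03 and 7.81 in TβRIII-KD. All TβRIII-KD arrays were above all controls, a difference of 0.42 (SE 0.11, interval 0.16 to 0.68, adjusted p = 0.0972). LRP4 crossed the cutoff without TβRIII-KD 1, at 0.54 (adjusted p = 0.0347, range 0.0347 to 0.331 over the alternatives). LDLRAD2 differed by 0.17 (adjusted p = 0.309). LRP1B, a relative of LRP1 often deleted in tumours, differed by 0.25 and the Wnt coreceptors LRP6 and LRP5 by 0.09 and -0.14. The interval of SORL1, from 1.10 upward, lay above the interval of each of the other 20 family genes measured, the highest of which reached 0.68. Because the set was chosen with this contrast known, that separation is a description and no test.

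**Figure D2:**
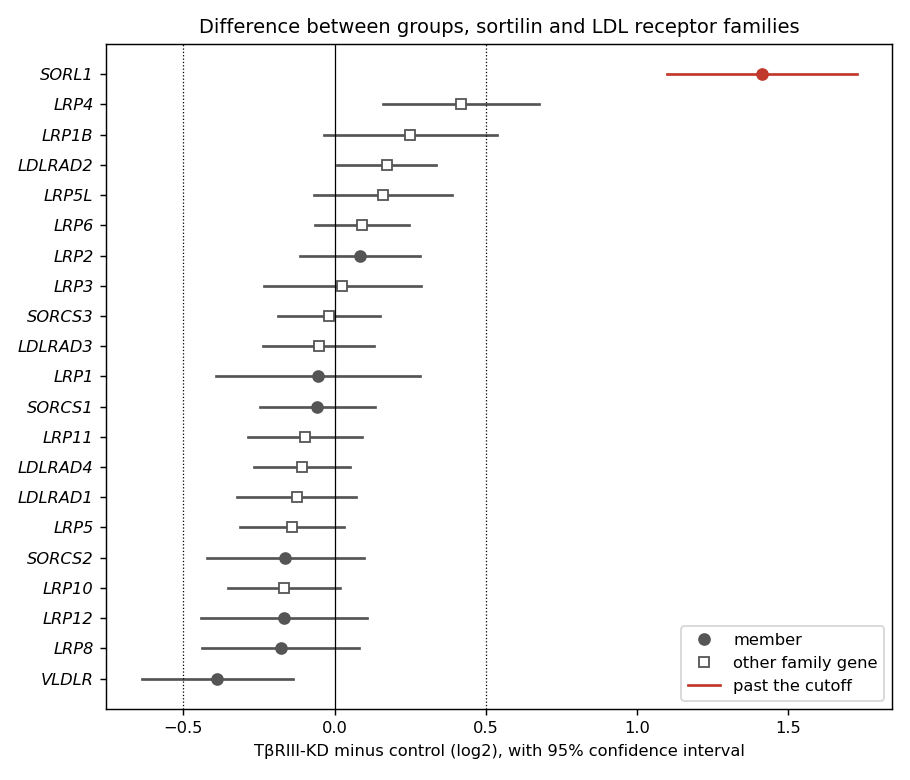
Difference between TβRIII-KD and control (log2) for the 21 measured genes of the sortilin and LDL receptor families, with 95% confidence intervals from limma (filled circles, genes of the set; open squares, other family genes; dotted lines, the fold limit of 0.5 on the log2 scale). The interval of SORL1, 1.10 to 1.73, does not overlap any other, and VLDLR and LRP4 lie at opposite ends of the rest, at -0.39 and 0.42. The set was chosen with this contrast known, so the place of SORL1 is a description.

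These receptors and genes that work with them were taken as 9 lists, of which 115 of 134 genes were measured. Past the cutoff were 4 (SORL1, CPE, TLR2 and M6PR), compared with 2.33% of all genes. All 9 lists were chosen with earlier results known, so this count is a description and no fair comparison with all genes. SORL1 also belongs to the set, so it adds to the count by that choice. The sortilin list (4 of 5 genes measured) and the LDL receptor family list (18 of 19) had SORL1 as the single gene past the cutoff, with medians of -0.04 and -0.05. Among receptor chaperones, adaptors and degraders, 13 of 15 were measured and 0 passed limma's cutoff. At an unadjusted p under 0.05 there was 1 by limma and 1 by the methods' t-test (15.6% and 13.8% of all genes). That gene by limma was DAB2, an endocytic adaptor for LDL receptor family tails, at -0.24 (adjusted p = 0.175).

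Of the ligands, 19 of 27 were measured, with 0 higher, 1 lower and a median of 0.006. The gene that fell was CPE, a carboxypeptidase that trims prohormones in secretory granules, which is not a classical ligand of these receptors. CPE read 9.74, 9.49 and 10.01 in controls and 9.002, 8.41 and 8.87 in TβRIII-KD, a difference of -0.99 (SE 0.17, adjusted p = 0.0194). The groups did not overlap, and the adjusted p exceeded 0.05 without control 1 (0.0851), control 3 (0.0659) or TβRIII-KD 2 (0.0582), within a range of 0.00138 to 0.231 over all alternatives. THBS1, thrombospondin 1, an LRP1 and LRP8 ligand named here after its values were seen, read 12.60, 12.54 and 12.71 in controls and 12.37, 11.995 and 11.96 in TβRIII-KD. Its arrays did not overlap, and the difference of -0.51 (SE 0.12) had an adjusted p of 0.0555, within a range of 0.0137 (without TβRIII-KD 1) to 0.279 over the alternatives. THBS1 also passed the cutoff with an intensity trend (0.0379) and among genes at or above the median signal (0.0394). A2M, α2-macroglobulin, also named after its values were seen, differed by -0.43 (adjusted p = 0.0533).

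Among coreceptors, 8 of 10 were measured and TLR2, an innate immune receptor, was the single gene past the cutoff. TLR2 read 7.59, 7.77 and 7.82 in controls and 6.86, 6.63 and 6.67 in TβRIII-KD, a difference of -1.01 (SE 0.10, adjusted p = 0.00127). The groups lay well apart, and the call held when each array was left out, at adjusted p up to 0.0113. PDGFRB, the PDGF receptor that LRP1 associates with, named after its values were seen, differed by -0.54 (adjusted p = 0.117) and passed without TβRIII-KD 3, at -0.75 (adjusted p = 0.00298, range 0.00298 to 0.395).

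The list of sorting machinery that carries SORL1 between endosomes and the Golgi also held the mannose 6-phosphate receptors M6PR and IGF2R. It was measured in full, 22 of 22 genes, with 0 higher, 1 lower (M6PR) and a median of 0.02. M6PR, the cation-dependent mannose 6-phosphate receptor, which delivers lysosomal enzymes through the same GGA and AP1 adaptors, read 10.73, 10.95 and 10.82 in controls and 10.42, 10.22 and 10.15 in TβRIII-KD. Its groups did not overlap and differed by -0.57 (SE 0.10, adjusted p = 0.0160), with adjusted p above 0.05 without control 2 (0.0607), control 3 (0.0637) or TβRIII-KD 2 (0.0736) and a range of 0.00976 to 0.167 over the alternatives. AP1S2 and IGF2R, named after their values were seen, were higher in signal without reaching the cutoff. The difference was 0.41 for AP1S2, an AP1 subunit (adjusted p = 0.0306, under the fold limit), and 0.27 for IGF2R, the larger mannose 6-phosphate receptor (adjusted p = 0.106).

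APP, its homologues and the secretases that cleave them, which decide the fate of the best known cargo of SORL1, gave no call by limma in 12 measured genes of 13, with 3 at an unadjusted p under 0.05 and 3 by the methods' t-test (15.6% and 13.8% of all genes). The lowest adjusted p was that of APLP2, an APP homologue, at 0.30 (adjusted p = 0.0550), and ADAM17, an α-secretase that also sheds receptors of this family, named after its values were seen, differed by -0.29 (adjusted p = 0.0866). In the reelin pathway 11 of 12 genes were measured and none passed the limma cutoff, with 5 at an unadjusted p under 0.05 and 5 by the methods' t-test (15.6% and 13.8% of all genes). FYN, the kinase that acts below VLDLR and LRP8, differed by -0.45 (adjusted p = 0.0339), under the fold limit of 0.5. The median of that list was -0.05.

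Of the sterol-regulated genes, 14 of 17 were measured and none passed limma's cutoff, with a median of 0.003. None had an unadjusted p under 0.05 by limma or by the methods' t-test (15.6% and 13.8% of all genes). The lowest p was that of HMGCS1, an enzyme early in cholesterol synthesis, at -0.26 (adjusted p = 0.550). TβRIII-KD 3 was the lowest of the 6 arrays for 10 of the 14 genes (71.4%), compared with 21.0% of all genes. No list had a gene past Benjamini-Hochberg adjustment by the methods' t-test.

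**Figure D3:**
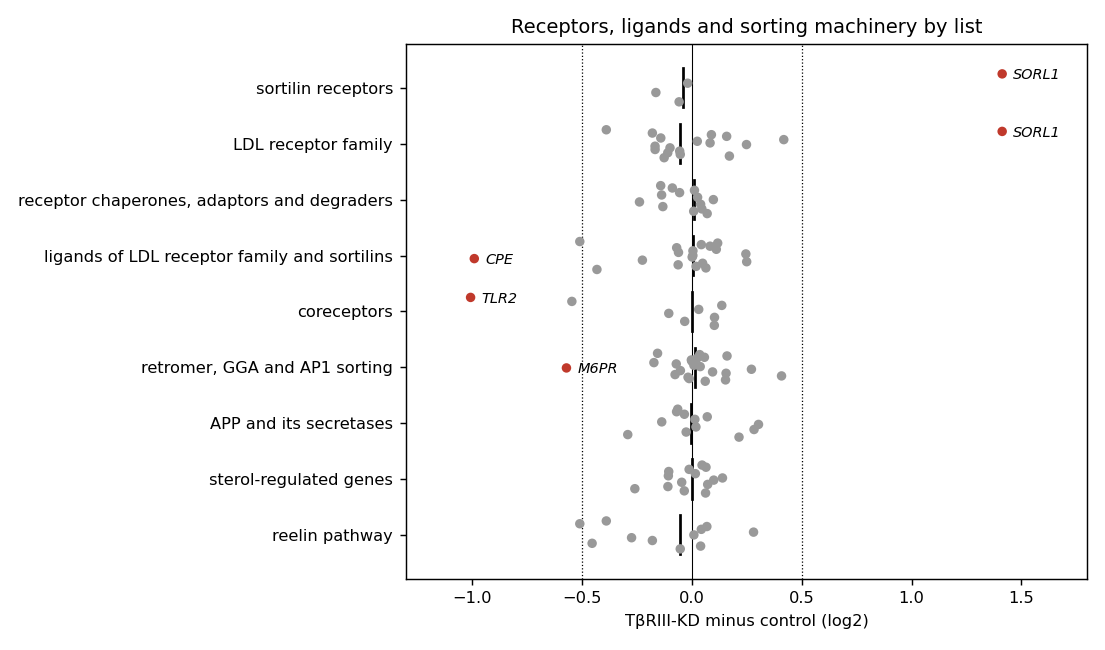
Difference between TβRIII-KD and control (log2) for each measured gene of the 9 lists (grey, not past the cutoff; red, past it; vertical bars, the median of each list; dotted lines, the fold limit of 0.5 on the log2 scale). SORL1, in both receptor lists, is the single gene past the cutoff on the higher side, and CPE, TLR2 and M6PR are past it on the lower side.

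Neither of the genes next to SORL1 on the chromosome, by the order of RefSeq genes that were measured, passed the cutoff. SC5D, a sterol desaturase gene before it, read 9.98, 10.19 and 9.94 in controls and 10.17, 9.94 and 9.67 in TβRIII-KD (difference -0.11, SE 0.13, interval -0.40 to 0.19, adjusted p = 0.766). MIR125B1, a microRNA gene after it, differed by 0.15 (SE 0.15, interval -0.19 to 0.49, adjusted p = 0.700). These intervals do not show that either gene was unchanged. The arrays of the 2 groups overlapped for SC5D, and the direction of both turned when TβRIII-KD 3 was left out (0.022 and -0.00057).

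By Pearson r with SORL1 over the 6 arrays, the nearest of all genes were GDF15 (r = 0.998), RHOU (0.994), NPAS2 (0.994), PLPP1 (0.993) and CDH6 (0.992). With 2 groups of 3 arrays, such values mostly restate a difference between the groups and are given as a description. GDF15, a stress-induced cytokine of the TGF-β superfamily, differed by 0.90, RHOU, an atypical small GTPase, by 1.12, and CDH6, a type II cadherin, by 1.35. PLPP1, a lipid phosphate phosphatase, differed by 0.74 and NPAS2, a circadian transcription factor, by 0.45. For all 5 genes, control 3 was the lowest control, as it was for SORL1, a likeness that choosing genes by r over these arrays favours. Within both families, r with SORL1 was -0.92 for VLDLR, 0.88 for LDLRAD2 and 0.82 for LRP4.

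**Figure D4:**
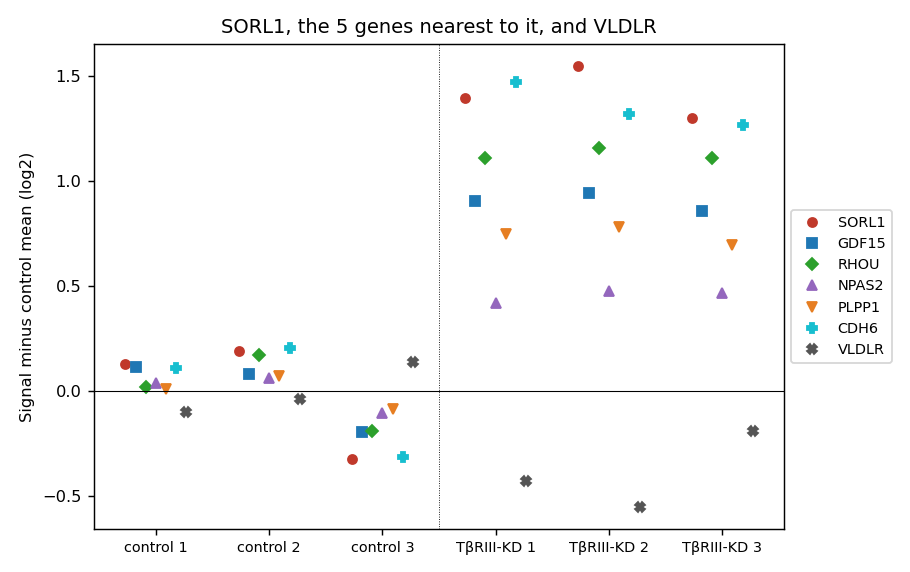
Signal minus the control mean (log2) on each array for SORL1, the 5 genes nearest to it by Pearson r, and VLDLR (3 arrays per group, divided by the dotted line). The 6 higher genes all have their lowest value in control 3, and VLDLR has its highest value there. Choosing the 5 genes by r over these same arrays favours a low shared with SORL1.

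Markers of other cell types were read beside these results. Of 3 endothelial markers, PECAM1 fell, from 7.60, 7.82 and 7.56 in controls to 6.61, 6.50 and 6.75 in TβRIII-KD (difference -1.04, adjusted p = 0.00127), while CDH5 and TEK differed by -0.16 and 0.06. The summed linear signal of the 3 was 328 to 376 in controls and 227 to 239 in TβRIII-KD. For 3 measured neuronal markers (RBFOX3, SYT1 and SNAP25), none past the cutoff, the sum was 341 to 358 in controls and 362 to 432 in TβRIII-KD. For 5 epithelial markers, none past the cutoff, it was 5643 to 6828 in controls and 4331 to 5238 in TβRIII-KD, a sum set mostly by the bright keratins KRT8 and KRT18. These differed by -0.36 and -0.38, EPCAM by -0.15, KRT19 by 0.12 and CDH1 by 0.08. No marker of leukocytes, hepatocytes or the mesenchymal state passed the cutoff by limma. The part of these shifts in the SORL1 difference was not tested.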

How the data were processed

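Gene expression was measured on 6 arrays of SUM159 cells in 3-dimensional culture, 3 control and 3 TβRIII-KD, grouped by their labels. The authors normalised the arrays by RMA with the oligo package in R 3.0.1 and deposited log2 signals, 1 value per transcript cluster and array; no package version or genome build is given in the sources used here. RMA draws the arrays to 1 common distribution, so a shift shared by all genes cannot be seen. Of 22148 transcript clusters, 19129 had 1 gene symbol in the platform annotation, 1735 several and 1284 none, and symbols were updated through RefSeq gene identifiers. The highest mean over 6 arrays chose the cluster of a gene.

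The contrast of TβRIII-KD minus control was fitted in limma 3.58.1 (lmFit and eBayes, two-sided) in R 4.3.3, with Benjamini-Hochberg adjustment over all 22148 clusters and a cutoff of adjusted p under 0.05 and absolute log2 difference over 0.5. Folds are 2 to the power of the difference. The script was tested on simulated data. The receptor set, the 9 gene lists and the marker lists were chosen with earlier results of these data known, so counts are given beside those of all genes and no set test was run. Genes named were TGFBR3, the set, both families, up to 4 genes per other list past the cutoff (or that of lowest p), the 5 nearest to SORL1 and its measured neighbours. Other genes are said to be named after their values were seen. Promoter sequences are from RefSeq on GRCh38.p14. For the arrays the methods name limma, which is the main test here; the unpaired t-test, named there for experiments in general and called the methods' t-test, served as an alternative. Alternatives changed the moderation, array weights, test, normalisation, filters, fold limit, transcript cluster, pairing and arrays. No scanner files were used.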

Additional observations from a re-analysis of the deposited data

How the results depend on the processing

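Of 765 gene values recomputed under 19 alternatives, 723 kept their direction and their side of the cutoff, 23 lost the call, 10 gained it and 9 turned in direction. SORL1 stayed at 1.25 to 1.51 when each array was left out and lost the call only under the methods' t-test, which the study names for its experiments in general and not for the arrays, after Benjamini-Hochberg adjustment (1.41, adjusted p = 0.108). That test called 1 cluster higher and 16 lower of all clusters, 0 genes of the set and 0 of the lists, against 172 higher, 329 lower, 1 and 4 in the main comparison. Unadjusted, it called 207 higher and 375 lower. Restricting the test to clusters at or above the median signal left 114 higher, and VLDLR and other dimmer genes then have no value. Without a fold limit 275 were higher, and with a limit of 1 on the log2 scale 37 were higher, 103 lower and 2 of the lists called. Leaving out each array in turn gave 88 to 251 higher, 215 to 387 lower and 2 to 6 of the lists (2 without control 3 or TβRIII-KD 2). Directions turned, over the same array removals, for LRP1 (-0.23 to 0.043), LRP3 (-0.069 to 0.12), SORCS3 (-0.049 to 0.020), SC5D (-0.23 to 0.022) and MIR125B1 (-0.00057 to 0.27). In the main comparison the confidence interval of each of these genes included 0. Apart from the array removals and changes of cutoff, filter or multiple testing, whose construction sets the counts, the cause was not tested. Replicate numbers were not taken as pairs, since deviations of same-numbered arrays correlated at -0.06, 0.11 and 0.31. With the replicate number as a block, 229 were higher and 387 lower, SORL1 stayed at 1.41 (adjusted p = 0.000227) and 5 genes of the lists passed, with THBS1 the one gained (adjusted p = 0.0397). With 3 arrays a side, an exact permutation test of a single gene cannot go below 0.1.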
